A study of Mus musculus with 16 samples.

Results

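The knockout effect averaged over feeding states is, for each gene, the mean of 2 differences in log2 intensity, knockout minus wild-type in fed mice and knockout minus wild-type in fasted mice, each with equal weight. It was taken over all 16 of the 16 liver arrays of the series and all 19935 of the 19935 genes measured. The mice were male and of a mixed Sv129/C57Bl/6 background. They were wild-type or knockout for PPARβ/δ, the nuclear receptor encoded by Ppard, and were fed or had been fasted for 24 h. All mice were anaesthetised with isoflurane, nitrous oxide and oxygen before they were killed, and RNA came from the same region of the lobe. The labels name no other agent and do not state the age of the mice. The 4 groups were 4 wild-type fed mice, 4 knockout fed mice, 5 wild-type fasted mice and 3 knockout fasted mice, 1 array per mouse. The series text speaks of 4 to 5 mice per group, so the knockout fasted group is smaller here than stated. The labels call the replicates biological replicates. They name no cell type to which the deletion is limited, nor do they state which part of Ppard was deleted or whether the wild-type mice were littermates.

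PPARβ/δ, PPARα and PPARγ are receptors for fatty acids and their derivatives. They bind DNA as partners of retinoid X receptors and raise genes of fatty acid uptake, storage and oxidation. PPARα is the main receptor of the fasting response in hepatocytes, and PPARβ/δ is also known for actions in macrophages, of which the Kupffer cells are the resident type of the liver. Interferon response genes are a set of antiviral genes that cells raise together when interferon reaches them, through response elements in their promoters.

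Liver identity was clear on every array. The 16 measured hepatocyte markers, such as albumin, had a summed intensity between 39697 and 45209. Their list score, which averages over the listed genes how far each log2 value lies from that gene's 16-array mean, lay between -0.14 and 0.10. Some libraries stood apart. Markers of skeletal muscle were high in wild-type fed mice 2 and 4, with scores of 1.99 and 4.01, and in knockout fasted mouse 1, with 2.81, against -0.85 to -0.49 in the other 13 mice. Pancreas markers were high in wild-type fasted mouse 5, with a score of 1.91 against -0.26 to 0.23 elsewhere. Knockout fed mice 1 and 4 had the highest acute phase scores, 0.94 and 1.52, against -0.48 to 0.29 in the other 14. The 4 mice with muscle or pancreas markers, and knockout fed mice 1 and 4, were each left out together, and lost calls of the genes described are given beside them.

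**Figure D1:**
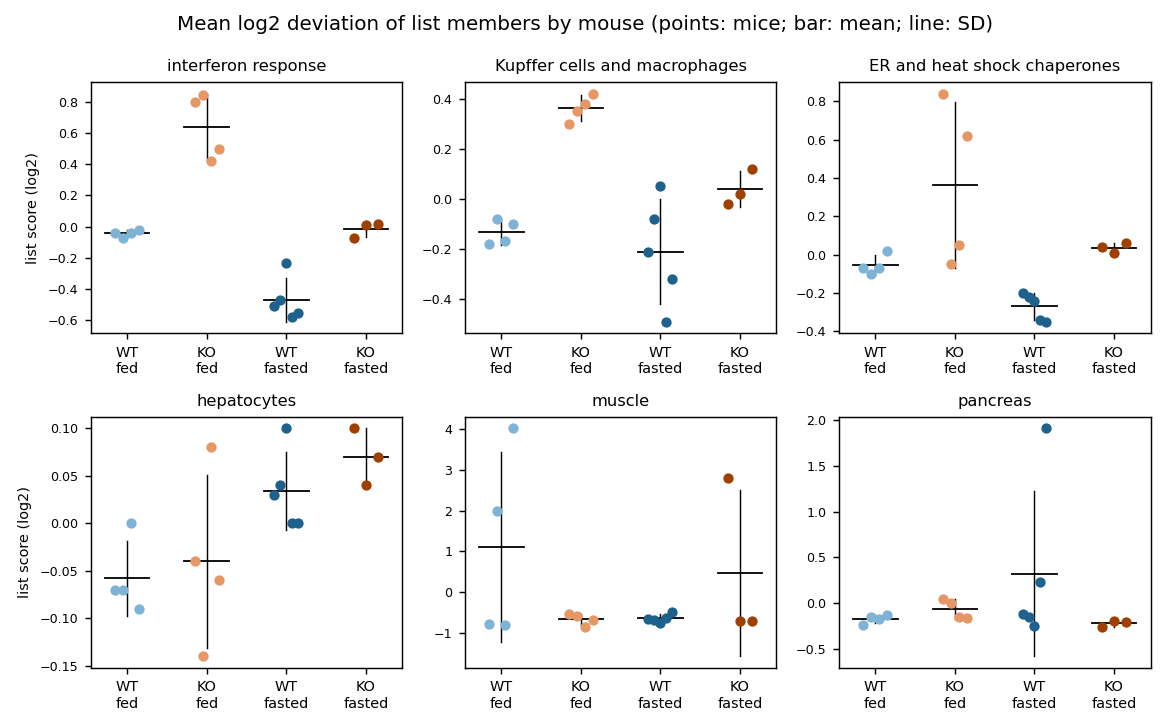
Score of 6 gene lists (log2 scale, vertical axes with different ranges) in each mouse, by group (WT, wild-type; KO, knockout; bars, group mean; lines, SD). Interferon response scores of knockout mice lie above those of wild-type mice in both feeding states, chaperone scores are high in knockout fed mice 1 and 4 (0.84 and 0.62), and muscle and pancreas scores stand out in 3 mice and in 1 mouse.

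Of the 19935 genes, 309 (1.55%) changed in the averaged effect at an adjusted p under 0.05 (limma, Benjamini-Hochberg). In knockout liver 192 genes (0.963%) were higher and 117 (0.587%) were lower. Most changes were small. The median size was 0.51 on the log2 scale, the smallest 0.20, and 23 rises and 10 falls reached 2-fold. The median over all genes was -0.01. The averaged effect called more genes than either state alone. In fed mice 135 genes (0.677%) were called, 90 higher and 45 lower, and in fasted mice 107 (0.537%), 70 higher and 37 lower, or 98 higher and 31 lower with each array centred on the common median. Of the 309 changed genes, 98 also passed within fed mice and 78 within fasted mice, 16 of them in both, and 149 passed in neither. The count was 171 without knockout fed mice 1 and 4, of which 152 were among the 309, and 114 without the 4 mice with muscle or pancreas markers, of which 106 were among them. It was 182 without knockout fasted mouse 2 and 175 without knockout fasted mouse 3. All 309 kept their sign in these 4 fits. The counts of the single states depended more on single mice. The fed count was 59 to 81 without any of the 4 wild-type fed mice or knockout fed mouse 1 or 4, 274 without knockout fed mouse 3, where falls outnumbered rises (126 higher and 148 lower), 51 without knockout fed mice 1 and 4 together and 26 without the 4 mice with muscle or pancreas markers. The fasted count was 70 and 67 without wild-type fasted mouse 4 or 5, 56, 22 and 21 without knockout fasted mouse 1, 2 or 3, and 27 without those 4 mice.

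The fed and fasted comparisons share no array, so each can be read beside the other. Among the genes called in fed mice, 115 of 135 (85.2%) had the same sign in fasted mice, and among those called in fasted mice 89 of 107 (83.2%) had the same sign in fed mice. Over all genes 46.0% had the same sign, and the 2 differences had a Pearson correlation of 0.05 across genes, which are not independent replicates. In 107 of the 309 changed genes (34.6%) all knockout mice were above, or all below, the wild-type mice in both feeding states, and 125 of all genes did so (0.627%). The average does not by itself make an effect equal in both states. The difference between the fasted and fed knockout effects passed for 2 genes (0.01%), and 2441 genes had an unadjusted p under 0.05. Among the 309 changed genes 86 (27.8%) had such a p, against 12.2% of all genes, and for the other changed genes this test does not show that the effects are equal.

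**Figure D2:**
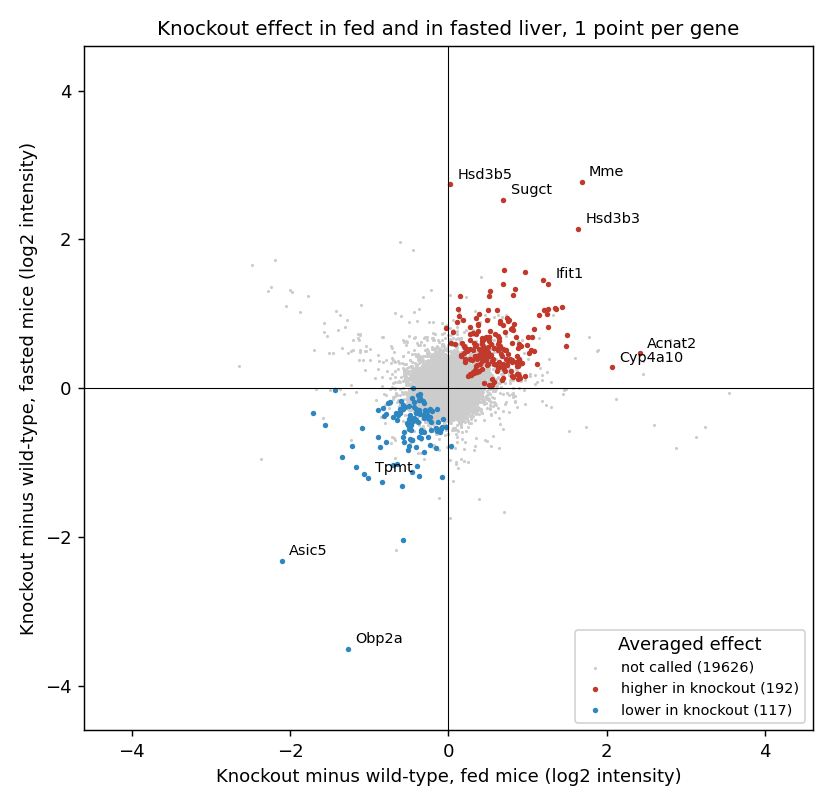
Knockout minus wild-type difference of each gene in fed mice (horizontal axis) and in fasted mice (vertical axis), both in log2 intensity, coloured by the call in the averaged effect. The 192 higher genes lie mostly in the upper right and the 117 lower genes in the lower left, while Hsd3b5 lies near 0 in fed mice and Acnat2 and Cyp4a10 lie far to the right with small values in fasted mice.

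Ppard, the targeted gene, was not called. Its log2 intensity in wild-type fed mice was 4.78, 5.50, 5.31 and 4.83, and knockout fed mice had 5.00, 4.50, 4.45 and 4.89. In the fasted state wild-type mice had 4.62, 4.40, 4.54, 4.67 and 4.58 and knockout mice had 4.50, 4.36 and 4.58. The groups overlapped in both states, and the averaged difference was -0.24 ± 0.11 (SE, limma adjusted p = 0.44). Since the deleted part is not known, this value does not check the genotype. Ppara was at -0.28 ± 0.13 (adjusted p = 0.442), or -0.12 without knockout fed mice 1 and 4, and the partner receptor Rxra at -0.03 ± 0.08 (adjusted p = 0.951).

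Pparg, the receptor of fat storage, was the 1 member of 13 receptor and partner genes that changed (7.69% lower, against 0.587% of all genes). In wild-type fed mice it had log2 intensities of 5.06, 4.76, 4.50 and 4.53, and in knockout fed mice 4.20, 4.39, 4.46 and 4.28. Wild-type fasted mice had 4.34, 4.64, 4.48, 4.52 and 4.52, and knockout fasted mice 4.06, 4.30 and 4.12. Knockout mice were below wild-type mice in both states without overlap, by gaps as small as 0.04. The averaged fall was -0.36 ± 0.08 (limma adjusted p = 0.0292). Leaving out knockout fed mice 1 and 4 gave -0.31 (adjusted p = 0.155), and it was -0.37 without the 4 mice with muscle or pancreas markers (adjusted p = 0.163). Single mice whose removal ended the call were wild-type fed mouse 2, wild-type fasted mice 2 and 4, knockout fed mice 1 and 4 and knockout fasted mice 1 and 3, with values over all single removals between -0.39 and -0.30 and adjusted p up to 0.092.

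The largest rise with groups apart in both states was that of Hsd3b3, a member of the 3-beta-hydroxysteroid dehydrogenase family of steroid enzymes. Wild-type fed mice had log2 intensities of 6.82, 7.16, 7.38 and 7.27 and knockout fed mice 8.97, 8.54, 9.11 and 8.58. The fasted wild-type mice had 5.97, 5.37, 6.11, 5.26 and 6.10 and knockout fasted mice 8.35, 7.48 and 7.89. Every knockout mouse was above every wild-type mouse of its state, and the averaged rise was 1.89 ± 0.16, or 3.72-fold (limma adjusted p = 2.27e-05). The family did not move as 1. Hsd3b5, its male-biased liver member, rose by 1.38 ± 0.19 (adjusted p = 0.00125), and Hsd3b2 was at -1.18 ± 0.29 (adjusted p = 0.0546), with -2.65 in fed mice and 0.30 in fasted mice. Hsd3b1, Hsd3b6 and Hsd3b7 were at -0.09, 0.24 and -0.23 and were not called. Close copies such as these may cross-hybridise, and their values are not fully separate. Apart from Hsd3b3 and Hsd3b5 they were chosen after their values were seen.

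Hsd3b5 is the changed gene whose effect differed between the feeding states. Wild-type fed mice had log2 intensities of 8.50, 8.30, 8.33 and 8.24 and knockout fed mice 8.27, 8.42, 8.74 and 8.03, which overlap. When fasted, wild-type mice had 5.48, 4.47, 4.76, 4.73 and 3.76, while knockout fasted mice had 7.89, 7.14 and 7.10. The fasted groups were far apart, and the knockout effect was 0.02 ± 0.26 in fed mice and 2.74 ± 0.27 in fasted mice. The difference between them was 2.72 ± 0.38 (limma adjusted p = 0.0284). Leaving out knockout fed mice 1 and 4 gave 2.50 (adjusted p = 0.167), and it was 2.31 without the 4 mice with muscle or pancreas markers (adjusted p = 0.0443). It missed the threshold without wild-type fed mouse 3 or 4, wild-type fasted mouse 3 or 4, knockout fed mouse 1 or 4, or any knockout fasted mouse (2.46 to 2.85, adjusted p up to 0.0995). With an intensity trend and robust variance Hsd3b5 missed it as well (2.72, adjusted p = 0.064). The other gene past this threshold, Tc2n, named after its value was seen, was not called in the averaged effect (0.11, with -0.36 in fed and 0.58 in fasted mice). It was the 1 gene that passed with the intensity trend and robust variance (adjusted p = 0.00666). The mean of Tc2n lay under the dim limit of log2 2.79. It was therefore not tested with dim genes left out, where Hsd3b5 was the 1 gene that passed. In all, 1 gene passed without knockout fed mice 1 and 4, and 5 passed without the 4 mice with muscle or pancreas markers. Leaving out 1 mouse gave counts of 0 to 8. None passed without wild-type fed mouse 3 or 4, wild-type fasted mouse 3 or 4, knockout fed mouse 4 or any of the 3 knockout fasted mice. There were 7 without wild-type fed mouse 1, 5 without knockout fed mouse 2, 8 without knockout fed mouse 3, and 1 without knockout fed mouse 1 or wild-type fasted mouse 1.

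Among the other largest rises, Ly86, which encodes a cofactor of an immune cell surface receptor, showed little spread. Wild-type fed mice had 3.91, 4.49, 4.16 and 4.16 and knockout fed mice 5.33, 5.27, 5.18 and 5.51, while wild-type fasted mice had 3.76, 4.39, 4.10, 3.91 and 3.56 and knockout fasted mice 4.90, 4.79 and 5.10. The groups did not overlap in either state, and the averaged rise was 1.07 ± 0.11 (limma adjusted p = 0.000151). Selenbp2, a selenium-binding protein gene with male-biased expression, rose by 1.33 ± 0.23 (adjusted p = 0.00509) and its close copy Selenbp1 by 0.74 ± 0.15. Both can share signal, and the Selenbp1 call was lost without knockout fasted mouse 1 or 3 (adjusted p up to 0.0569) and without the 4 mice with muscle or pancreas markers (adjusted p = 0.0848). Slc41a2, a magnesium transporter gene, rose by 1.21 ± 0.22 (adjusted p = 0.00861). The kinase gene Ikbke, which acts upstream of interferon regulatory factors, rose by 0.94 ± 0.18 (adjusted p = 0.0131). Both calls were lost without the 4 mice with muscle or pancreas markers, at 1.14 (adjusted p = 0.132) and 0.88 (adjusted p = 0.172). Ddah1, whose enzyme degrades methylarginines, rose by 1.04 ± 0.23 (adjusted p = 0.0288). That call was lost without wild-type fed mouse 1 or 4, knockout fed mouse 1 or 3, or any knockout fasted mouse (0.96 to 1.06, adjusted p up to 0.0872), and without knockout fed mice 1 and 4 or the 4 mice with muscle or pancreas markers (adjusted p = 0.086 and 0.18). The remaining large rises, Ifit1, Gbp3, Usp18, Irf7, Rtp4 and Oas1a, are interferon response genes and are described below.

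Of larger changes whose groups overlapped in at least 1 state, 4 were named after their values were seen. Mme, which encodes the membrane peptidase neprilysin, rose by 2.23 ± 0.33 (limma adjusted p = 0.00193). Its log2 intensity lay between 2.29 and 2.42 in wild-type fasted mice, under the dim limit of 2.79, and was 5.02, 6.10 and 4.27 in knockout fasted mice. Among fed mice, wild-type mouse 2 at 4.64 lay above knockout mouse 2 at 3.78. Sugct, a CoA transferase gene of glutarate metabolism, rose by 1.61 ± 0.24 (adjusted p = 0.00195), with 0.70 in fed and 2.53 in fasted mice. Acnat2, an acyl-CoA amino acid N-acyltransferase gene, rose by 1.44 ± 0.21 (adjusted p = 0.0016), with 2.42 in fed and 0.47 in fasted mice. Obp2a, an odorant-binding protein gene, fell by 2.39 ± 0.44 (adjusted p = 0.00881), with -1.27 in fed and -3.51 in fasted mice. It lay under the dim limit in 5 of 7 knockout mice, at 2.25, 2.42 and 2.57 in knockout fed mice 1, 2 and 4 and at 2.50 and 2.36 in knockout fasted mice 2 and 3. The sizes of the Mme and Obp2a differences therefore rest on dim values. Obp2a missed the threshold with knockout fed mice 1 and 4 left out, at -2.22 (adjusted p = 0.0566).

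The largest fall with groups apart was that of Asic5, a gene of the acid-sensing ion channel family. Wild-type fed mice had log2 intensities of 8.17, 7.65, 8.77 and 8.17 and knockout fed mice 4.87, 6.36, 6.92 and 6.19. Among fasted mice, wild-type livers had 9.23, 9.01, 9.27, 9.35 and 9.52 and knockout fasted mice 7.78, 5.16 and 7.93. The knockout values spread over more than 2 log2 units in each state but stayed below all wild-type values of the same state, and the averaged fall was -2.21 ± 0.35, or 4.63-fold (limma adjusted p = 0.00313). Nt5e, whose product CD73 makes adenosine from AMP, fell by 1.13 ± 0.16 (adjusted p = 0.00129).

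Tpmt, the thiopurine methyltransferase gene, had 8.94, 8.63, 8.96 and 8.81 in fed wild-type mice and 7.43, 8.01, 8.07 and 7.75 in fed knockout mice. Fasted wild-type values were 8.79, 8.60, 9.47, 8.99 and 9.53 and knockout fasted mice 7.83, 7.75 and 8.04. Knockout values were nearly the same in both states and below all wild-type values, with an averaged fall of -1.11 ± 0.13 (limma adjusted p = 0.000468). Cd59a, which encodes an inhibitor of the complement attack complex, fell by as much, -1.11 ± 0.11 (adjusted p = 0.000151), with -1.07 in fed and -1.15 in fasted mice. Its close copy can share probe signal. Nmrk1, whose kinase phosphorylates nicotinamide riboside on the way to NAD, had 5.39, 5.43, 5.09 and 5.12 in fed wild-type mice. Fed knockout mice had 4.91, 4.48, 4.44 and 4.41. It had 5.83, 5.70, 5.82, 5.61 and 5.40 in wild-type fasted mice against 4.78, 4.69 and 4.44 in knockout fasted mice. Groups were again apart in both states, and the fall was -0.87 ± 0.09 (adjusted p = 0.00018). Sirt5, whose mitochondrial deacylase depends on NAD, fell by 0.75 ± 0.10 (adjusted p = 0.000836). Further falls were those of Fam131c at -0.83, Pcsk6, a proprotein convertase gene, at -0.58, the zinc finger gene Zfp868 at -0.58 (under the dim limit in 4 of 7 knockout mice), Spg11 at -0.64 and the deubiquitinase gene Usp38 at -0.51. Spg11 was no longer called without knockout fed mice 1 and 4 (-0.60, adjusted p = 0.0726) or without the 4 mice with muscle or pancreas markers (-0.63, adjusted p = 0.105). Usp38 was not called without knockout fed mice 1 and 4 (-0.52, adjusted p = 0.0582) or without knockout fasted mouse 1 or 2 (adjusted p up to 0.0788).

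**Figure D3:**
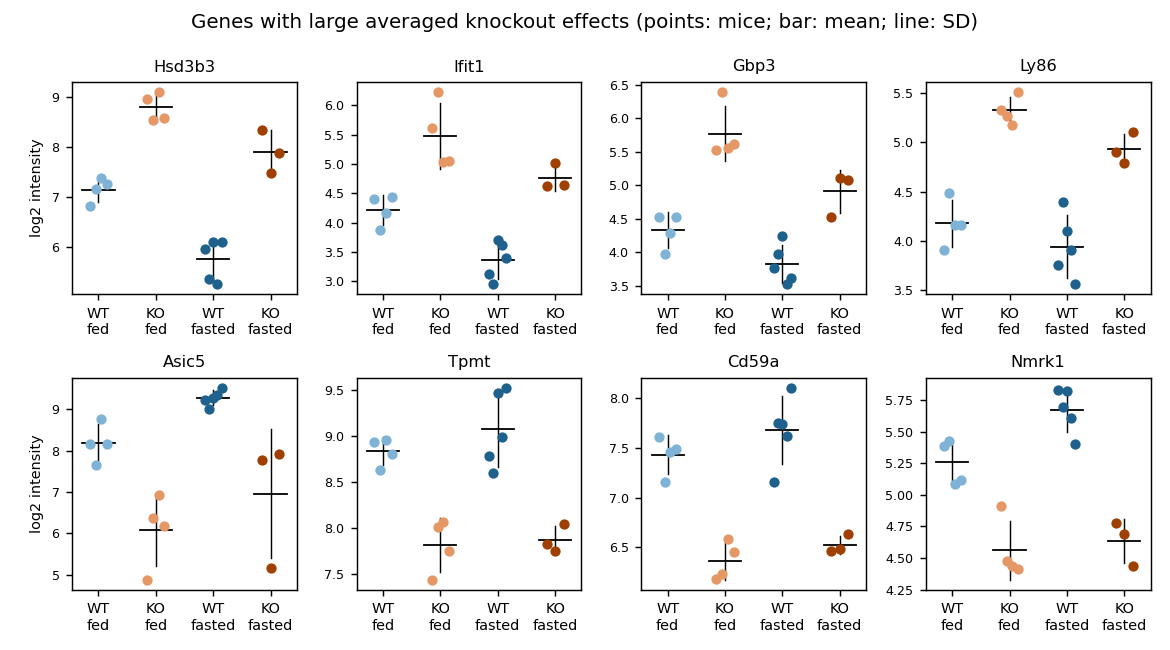
Log2 intensity of 8 genes in each mouse, by group (WT, wild-type; KO, knockout; bars, group mean; lines, SD; vertical axes differ and do not start at 0). Hsd3b3, Ifit1, Gbp3 and Ly86 are higher and Asic5, Tpmt, Cd59a and Nmrk1 lower in every knockout mouse than in every wild-type mouse of the same feeding state.

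Interferon response genes were higher in knockout liver in both feeding states. Of 37 measured members of the list, 24 rose and none fell (64.9%, against 0.963% of all genes that rose), and 36 of 37 had a positive value. Ifi44l, an interferon-induced gene by name that is not on the list, was called lower. It was named after its value was seen. The list's median was 0.57, with 0.58 in fed and 0.45 in fasted mice, against -0.01 over all genes. In 17 of the 37 every knockout mouse was above every wild-type mouse in both states, a pattern found in 0.421% of all genes. The list scores were -0.07 to -0.02 in wild-type fed mice, 0.42 to 0.84 in fed knockout mice, -0.58 to -0.23 in wild-type fasted mice and -0.07 to 0.02 in knockout fasted mice. The groups were thus apart within each state, while knockout fasted mice lay at the level of wild-type fed mice. The list still had 23 rises without knockout fed mice 1 and 4, 17 without the 4 mice with muscle or pancreas markers and 21 to 25 without any 1 mouse.

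The promoters of genes of this group are shown because they rose together. RefSeq promoters (GRCm38.p6, 250 bases before to 50 after the start) were matched for 15561 of the tested genes. The core of the interferon-stimulated response element, which is GAAA, 2 bases of any kind and GAAA again, was searched on both strands, counting overlapping matches and counting a gene if any of its listed promoters held it. It was present in 605 of these 15561 genes (3.89%), in 28 of 144 genes that rose (19.4%) and in 5 of 102 that fell (4.9%). Of the 15 interferon response genes that rose and had a promoter entry, 10 held it. Of all 27 listed interferon response genes with an entry, changed or not, 12 did (44.4%). This motif and the chaperone motif below were chosen after the expression values were seen. The promoters of Ifit1 (chr19:34640639-34640938, plus strand), Gbp3 (chr3:142559794-142560093, plus strand) and Oas1a (chr5:120907476-120907775, minus strand) are written 5′ to 3′ in the direction of the gene, with every base of a match in capitals.
Ifit1: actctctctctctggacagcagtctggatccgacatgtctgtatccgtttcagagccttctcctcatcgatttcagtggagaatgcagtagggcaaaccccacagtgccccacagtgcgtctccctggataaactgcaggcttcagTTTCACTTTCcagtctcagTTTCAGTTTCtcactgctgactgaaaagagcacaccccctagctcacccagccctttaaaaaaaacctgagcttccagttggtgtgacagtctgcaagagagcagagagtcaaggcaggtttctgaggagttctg
Gbp3: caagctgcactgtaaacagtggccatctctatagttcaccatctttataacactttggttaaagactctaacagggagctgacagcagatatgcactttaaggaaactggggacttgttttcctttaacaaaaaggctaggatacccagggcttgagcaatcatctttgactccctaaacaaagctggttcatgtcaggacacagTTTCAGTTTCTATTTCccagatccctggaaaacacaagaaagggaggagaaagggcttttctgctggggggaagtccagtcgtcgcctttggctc
Oas1a: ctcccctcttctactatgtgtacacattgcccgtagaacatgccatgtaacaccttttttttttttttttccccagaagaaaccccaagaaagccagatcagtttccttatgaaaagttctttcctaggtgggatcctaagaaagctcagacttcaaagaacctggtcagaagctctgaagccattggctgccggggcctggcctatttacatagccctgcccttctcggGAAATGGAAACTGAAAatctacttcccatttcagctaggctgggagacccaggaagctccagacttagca
In Ifit1 the matches begin 104 and 85 bases before the start, and in Gbp3 they begin 45 and 39 bases before it and overlap. Those 4 matches are on the opposite strand. In Oas1a 2 overlapping matches begin 20 and 14 bases before the start on the gene's own strand. The Irf7 promoter and a second listed Gbp3 promoter held no match in this window.

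Ifit1, whose protein binds foreign RNA, had log2 intensities of 4.40, 3.87, 4.16 and 4.44 in fed wild-type mice and 5.61, 6.23, 5.03 and 5.05 in fed knockout mice. Wild-type fasted mice had 3.13, 2.95, 3.71, 3.62 and 3.40 and knockout fasted mice 4.63, 5.02 and 4.65. The groups were apart in both states, and the averaged rise was 1.33 ± 0.17, or 2.52-fold (limma adjusted p = 0.000635). Gbp3, a guanylate-binding GTPase gene whose probes its close copies can share, had 4.53, 3.97, 4.29 and 4.53 in fed wild-type mice and 5.52, 6.39, 5.55 and 5.62 in fed knockout mice. Fasted mice had 3.76, 3.98, 4.24, 3.52 and 3.62 when wild-type and 4.53, 5.11 and 5.08 when knockout. Knockout fed mouse 2 was the highest, the groups did not overlap, and the rise was 1.26 ± 0.15 (adjusted p = 0.000424). Rtp4, an interferon-induced chaperone of surface receptors, had 5.76, 5.98, 5.70 and 5.91 against 7.38, 7.33, 6.73 and 6.92 in fed wild-type and knockout mice. In fasted mice it had 4.86, 5.33, 5.48, 4.94 and 4.86 against 5.91, 6.15 and 6.23. It was apart in both states and rose by 1.13 ± 0.11 (adjusted p = 0.000151). Oas1a, which encodes a sensor of double-stranded RNA, rose by 1.03 ± 0.12 (adjusted p = 0.000468), with 1.48 in fed and 0.57 in fasted mice.

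Of the regulators measured, Irf7, Irf9 and Usp18 rose, while Irf1 at 0.37, Irf8 at 0.12 and Stat2 at 0.07 did not pass. Irf7, the transcription factor that amplifies interferon production, rose by 1.13 ± 0.18 (limma adjusted p = 0.00326), and Irf9, which carries the interferon signal to DNA, by 0.57 ± 0.09 (adjusted p = 0.00395). Usp18, which restrains the interferon receptor, rose by 1.21 ± 0.18 (adjusted p = 0.00219). Among the sensors of viral RNA, Ddx58 rose by 0.59 ± 0.08, Ifih1 by 0.60 ± 0.09 and Dhx58 by 0.55 ± 0.12. Antiviral effectors that rose include Bst2 by 0.77 ± 0.11, Rsad2 by 0.83 ± 0.14, Ifit3 by 0.82 ± 0.11, Mx2 by 1.04 ± 0.21, Trim30a by 0.78 ± 0.11 and the GTPase gene Irgm1 by 0.71 ± 0.09. Also among the 24 were Ifi27 (0.87), Zbp1 (0.72), Oasl2 (0.59), Ifit2 (0.58), Cmpk2 (0.56), Parp14 (0.56), Oas2 (0.51) and Iigp1 (0.42). The 13 that did not pass also include Mx1 at 0.18, Psmb8 at 0.00, Psmb9 at 0.01, Tap1 at 0.14 and Isg20 at -0.04. Without the 4 mice with muscle or pancreas markers 7 of the 24 calls were lost and 17 kept. The 7 were Irf7 (1.07, adjusted p = 0.0571), Ifit2 (0.67, 0.0567), Mx2 (1.21, 0.0711), Iigp1 (0.39, 0.0776), Zbp1 (0.72, 0.09), Oasl2 (0.56, 0.121) and Dhx58 (0.42, 0.25), each with its value and adjusted p. Ifit2 lay under the dim limit in 7 of 9 wild-type mice and 2 of 7 knockout mice. Among single mice, leaving out knockout fasted mouse 2 ended the Ifit2 and Iigp1 calls (highest adjusted p 0.059 and 0.078), and knockout fasted mouse 3 ended those of Mx2, Iigp1 and Dhx58 (highest adjusted p 0.0589, 0.078 and 0.0803). Iigp1 was at 0.45 without knockout fed mice 1 and 4 (adjusted p = 0.054). Dhx58 also missed the threshold without wild-type fed mouse 3 or 4, knockout fed mouse 1 or knockout fasted mouse 1.

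Markers of Kupffer cells and macrophages were also higher. Of 28 measured markers, 12 rose (42.9%, against 0.963% of all genes) and none fell. Positive values were found in 25, and the median was 0.41, with 0.53 in fed and 0.30 in fasted mice. Negative values were found in 3, the lowest at -0.20. At an unadjusted p under 0.05 in limma, 21 markers were higher and 1 was lower. Within fed mice alone 9 rose, and within fasted mice alone 1 (0.451% and 0.351% of all genes). In 4 of the 28 every knockout mouse was above every wild-type mouse in both states, against 0.421% of all genes. The 28 markers share no gene with the interferon list. In bulk liver, more cells of a type and more RNA per cell cannot be told apart. Scores were -0.18 to -0.08 in fed wild-type mice and 0.30 to 0.42 in fed knockout mice, which do not overlap, and summed intensities were 1982 to 2119 and 2536 to 2856. In fasted mice they were -0.49 to 0.05 and -0.02 to 0.12, with summed intensities of 1670 to 2433 and 2186 to 2415, and wild-type fasted mouse 3 at 0.05 lay within the knockout range. The count was 7 without knockout fed mice 1 and 4 and 5 without the 4 mice with muscle or pancreas markers, while the median was 0.40 and 0.39. Both this list and the interferon list had higher mean scores in knockout than in wild-type mice in each state. From wild-type fed to wild-type fasted mice the interferon mean went from -0.04 to -0.47 and the marker mean from -0.13 to -0.21. The part of these markers in the interferon result was not tested.

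Clec4f, a lectin gene found on Kupffer cells, had log2 intensities of 7.0, 7.41, 7.10 and 7.05 in fed wild-type mice and 7.97, 8.09, 7.96 and 8.04 in fed knockout mice. The fasted wild-type mice had 6.95, 7.25, 7.19, 6.74 and 6.94 and knockout fasted mice 7.41, 7.57 and 7.69. Knockout mice were above wild-type mice in both states, and the averaged rise was 0.71 ± 0.08 (limma adjusted p = 0.000347). Mpeg1, which encodes a pore-forming protein of macrophages, rose by 1.10 ± 0.17 (adjusted p = 0.00231), with 1.50 in fed and 0.71 in fasted mice, and the sialic acid receptor gene Siglec1 by 0.63 ± 0.09 (adjusted p = 0.00193). Cd5l, Folr2, Fcgr1, Clec7a, Ctss and C1qb rose by 0.46 to 0.61, and C1qb was also the 1 changed gene of 35 in the complement and coagulation list. Csf1r, the receptor of macrophage growth factor, rose by 0.45 ± 0.09 (adjusted p = 0.0212), Cd68 by 0.56 ± 0.12 (adjusted p = 0.0272) and the complement receptor gene Vsig4 by 0.50 ± 0.11 (adjusted p = 0.0268). The Csf1r call was lost without knockout fasted mouse 2 or 3 (adjusted p up to 0.0722). The Cd68 and Vsig4 calls were lost without wild-type fed mouse 1 or 3, knockout fed mouse 4 or knockout fasted mouse 3, and also without knockout fasted mouse 1 for Cd68 and mouse 2 for Vsig4 (adjusted p up to 0.103 and 0.10). Without knockout fed mice 1 and 4 the 5 lost calls were C1qb, Ctss, Vsig4, Cd68 and Csf1r (adjusted p 0.0522 to 0.0951). Without the 4 mice with muscle or pancreas markers the 7 lost calls were Folr2, Clec7a, Vsig4, Ctss, Fcgr1, Cd68 and Csf1r (adjusted p 0.0503 to 0.125). Clec7a lay under the dim limit in 7 of 9 wild-type mice. Not all markers passed. Adgre1, a classical macrophage marker, was at 0.39 ± 0.09 (adjusted p = 0.0507), Timd4 at 0.23, Cd163 at 0.35, Mrc1 at -0.06, Lyz2 at 0.24 and Marco at -0.05.

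Other immune cell lists held no changed member. None of 17 neutrophil markers, 24 T and NK cell markers and 17 B and plasma cell markers passed in limma, where 0, 3 and 2 had an unadjusted p under 0.05, all higher. Of these markers 15, 18 and 13 had a mean under the dim limit of 2.79. Neutrophil markers were nevertheless high in knockout fed mice 1 and 4, with scores of 0.30 and 0.41 against -0.19 to 0.08 in the other 14 mice, and summed intensities of 558 and 1910 against 91 to 182. The part of these markers in the results that rest on those mice was not tested. Sinusoidal endothelial markers rose in 2 of 25 (Lyve1 and Cd36), stellate and fibroblast markers in 1 of 26 (Postn), and hepatocyte markers in 1 of 16 (Cyp2f2). The erythroid gene Alas2 fell, 1 of 8. Over all genes 0.963% rose and 0.587% fell. The calls of Lyve1, Cd36, Postn and Alas2 were each lost without 9 or more of the 16 single mice. Without knockout fed mice 1 and 4, Lyve1 was at 0.42 (adjusted p = 0.177) and Postn at 0.58 (adjusted p = 0.0767). Without the 4 mice with muscle or pancreas markers, Lyve1, Postn and Alas2 were at 0.61, 0.68 and -0.50 (adjusted p = 0.0781, 0.0603 and 0.0664). The muscle list had no changed member, none at an unadjusted p under 0.05 in limma, and a median of -0.34 (-1.99 in fed and 1.20 in fasted mice), or 0.04 without the 4 mice with muscle or pancreas markers. The pancreas list likewise had none of either kind, with a median of -0.23, or 0.01 without them, and so did the 11 cholangiocyte markers, with a median of -0.06. Of 9 adipocyte markers Pparg was the 1 that changed.

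**Figure D4:**
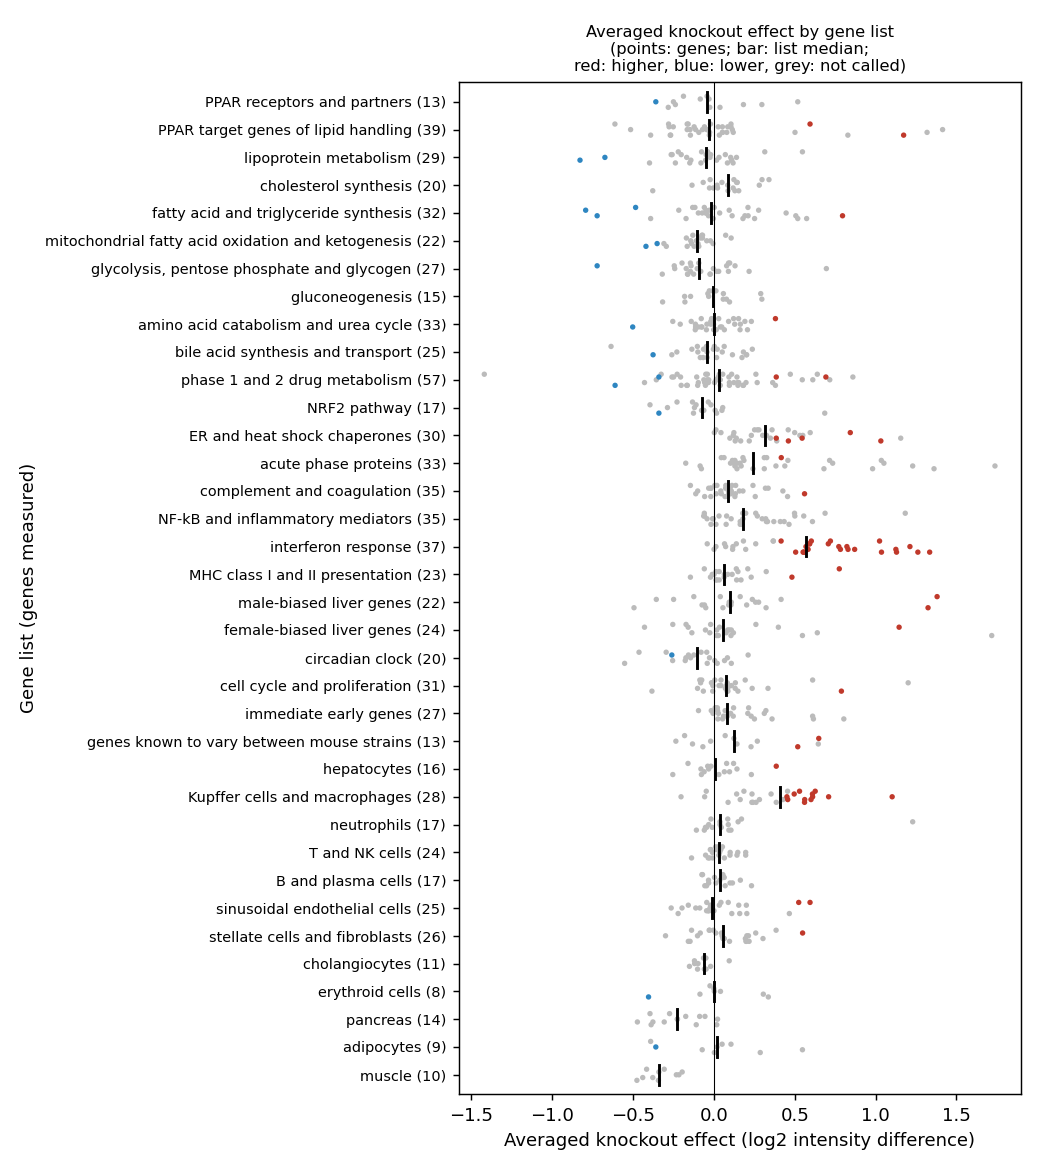
Averaged knockout effect (horizontal axis, log2 intensity difference) of the measured members of each gene list (vertical axis, number measured in brackets), with changed genes in colour and a bar at the list median. Interferon response genes (24 of 37 higher) and Kupffer cell and macrophage markers (12 of 28 higher) hold the most changed members, and the other lists hold 5 or fewer each.

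Chaperones of the endoplasmic reticulum and of heat shock were higher as a group, with few members past the threshold. All 30 measured genes were positive, with a median of 0.31, 0.35 in fed and 0.21 in fasted mice. In limma 5 rose (16.7%, against 0.963% of all genes) and none fell, while 19 had an unadjusted p under 0.05. In fed mice the list score was high in knockout mice 1 and 4 alone (0.84 and 0.62), at -0.05 and 0.05 in knockout mice 2 and 3, and at -0.10 to 0.02 in wild-type mice. In fasted mice the groups were apart, with scores from -0.35 to -0.20 without and from 0.01 to 0.06 with the knockout. Without knockout fed mice 1 and 4 the median was 0.13 and 5 rose, 4 of them among the same 5. Without the 4 mice with muscle or pancreas markers 1 rose, and with array weights 8 did. Leaving out 1 mouse gave counts from 1, without knockout fasted mouse 3, to 12, without knockout fed mouse 2. Of the other single mice, knockout fed mouse 3 gave 9, knockout fed mouse 1 alone kept the count within 1.5 times, and the remaining 12 gave 2 or 3.

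The promoters of 2 members are shown for the endoplasmic reticulum stress response element, which is CCAAT, 9 bases of any kind and CCACG, searched on both strands. It was present in 21 of 15561 genes (0.135%), in 5 of 144 that rose and in none of 102 that fell. The 5 were Acnat2, Ero1b, Hsp90b1, Hspa5 and Pdia6, of which 3 belong to the 4 changed chaperones with a promoter entry. The promoters are those of Hspa5 (chr2:34771840-34772139, plus strand) and Pdia6 (chr12:17266339-17266638, plus strand), with the match in capitals.
Hspa5: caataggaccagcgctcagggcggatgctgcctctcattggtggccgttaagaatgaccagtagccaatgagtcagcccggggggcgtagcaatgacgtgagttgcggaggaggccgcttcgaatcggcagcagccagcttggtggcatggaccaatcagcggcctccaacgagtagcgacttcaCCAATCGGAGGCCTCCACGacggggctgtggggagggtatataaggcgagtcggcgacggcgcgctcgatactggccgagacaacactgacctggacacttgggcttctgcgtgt
Pdia6: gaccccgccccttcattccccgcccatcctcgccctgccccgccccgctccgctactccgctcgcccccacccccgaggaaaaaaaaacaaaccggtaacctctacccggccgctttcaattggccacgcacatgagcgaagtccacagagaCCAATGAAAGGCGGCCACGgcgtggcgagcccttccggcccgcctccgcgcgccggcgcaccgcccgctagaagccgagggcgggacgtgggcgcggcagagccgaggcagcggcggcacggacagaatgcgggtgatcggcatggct
The match begins 65 bases before the start in Hspa5 and 98 in Pdia6, on the gene's own strand in both, and the Sdf2l1 promoter held none in this window.

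Pdia6, a disulfide isomerase gene of the endoplasmic reticulum, had log2 intensities of 9.60, 9.51, 9.72 and 9.66 in fed wild-type mice and 10.10, 9.64, 9.55 and 9.93 in fed knockout mice. When fasted, wild-type mice had 8.15, 8.48, 8.26, 8.15 and 8.48 and knockout fasted mice 9.22, 9.13 and 9.30. The fed groups overlapped through knockout mice 2 and 3, the fasted groups were apart, and the averaged rise was 0.55 ± 0.08 (limma adjusted p = 0.00212). Hyou1, another chaperone gene of this compartment, rose by 0.84 ± 0.17 (adjusted p = 0.0195) and Sdf2l1, a partner of such chaperones, by 1.03 ± 0.24 (adjusted p = 0.0421). The master chaperone gene Hspa5 rose by 0.46 ± 0.11 (adjusted p = 0.0383) and Hsp90b1 by 0.39 ± 0.09 (adjusted p = 0.0353). Hyou1 was not called without knockout fasted mouse 3 (adjusted p = 0.0783), and Sdf2l1, Hspa5 and Hsp90b1 without 11, 13 and 12 of the single mice, controls included (adjusted p up to 0.13, 0.13 and 0.121). Without knockout fed mice 1 and 4 the Hsp90b1 call was lost (0.24, adjusted p = 0.0937). Without the 4 mice with muscle or pancreas markers, Hyou1 (0.93), Sdf2l1 (1.0), Hspa5 (0.48) and Hsp90b1 (0.40) all lost theirs (adjusted p = 0.114, 0.26, 0.209 and 0.195). Knockout fed mice 1 and 4 were the highest fed mice for Sdf2l1, Hyou1, Hspa5 and Hsp90b1. Ero1b, which oxidises protein disulfides there, was named after its value was seen and rose by 0.55 ± 0.09 (adjusted p = 0.00473), or by 0.44 without the 4 mice with muscle or pancreas markers (adjusted p = 0.0906).

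Listed target genes of PPARs in lipid handling mostly did not change. Of 39 measured, 2 rose (5.13%, against 0.963% of all genes) and none fell, with a median of -0.03. The list does not hold Acadm, Hadh, Vldlr and Apoa4, which fell and are described below with other lists. Cyp4a10, a fatty acid omega-hydroxylase gene, had 5.68, 4.12, 5.34 and 4.69 in fed wild-type mice and 7.36, 7.49, 7.63 and 5.63 in fed knockout mice. In fasted mice it had 10.59, 9.58, 9.55, 9.94 and 9.76 in wild-type and 10.24, 10.41 and 9.84 in knockout mice. The groups overlapped in both states, in fed mice through knockout mouse 4, and the averaged rise was 1.17 ± 0.28 (limma adjusted p = 0.0461), from 2.07 in fed and 0.28 in fasted mice. Its close copies Cyp4a14 and Cyp4a31, which can share its probes, were at 1.32 (adjusted p = 0.231) and 1.41 (adjusted p = 0.0576). Cd36, the fatty acid transporter gene, rose by 0.60 ± 0.13 (adjusted p = 0.033), from 0.13 in fed and 1.06 in fasted mice. The Cyp4a10 call was lost without any single mouse other than wild-type fed mouse 1, wild-type fasted mouse 1 and knockout fed mouse 4 (1.03 to 1.25, adjusted p up to 0.137). It was also lost without the 4 mice with muscle or pancreas markers (0.86, adjusted p = 0.361). The Cd36 call was lost without any single mouse other than wild-type fed mouse 4, wild-type fasted mouse 3 and knockout fed mice 1 and 3 (adjusted p up to 0.0925) and with knockout fed mice 1 and 4 both left out (0.65, adjusted p = 0.0697). Classical targets, named after their values were seen, were not called, with Angptl4 at 0.08, Plin2 at -0.11, Cpt1a at -0.16, Ehhadh at 0.11, Pdk4 at -0.27, Acot1 at 0.50, Vnn1 at 0.83 and Fgf21 at -0.61. The usual PPAR element, a direct repeat of AGGTCA with 1 base between the copies, was in 8 of the 15561 genes with a promoter entry (0.0514%) and in no changed gene. None of the 30 listed PPAR target genes with a promoter entry held it either. Because exact matches are so rare in this window, their absence from changed genes says nothing about those genes. A single AGGTCA was in 16.3% of all, 18.1% of the genes that rose and 18.6% of those that fell. Both were searched on both strands, and the counts of single copies include the repeats.

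Fatty acid oxidation genes of mitochondria lay slightly lower, 20 of 22 with a negative value and a median of -0.10, and 2 of the 22 fell (9.09%, against 0.587% of all genes). Acadm, the medium-chain acyl-CoA dehydrogenase gene, had log2 intensities of 9.95, 10.02, 10.03 and 9.93 in fed wild-type mice and 9.54, 9.66, 9.69 and 9.49 in fed knockout mice. Among fasted mice, wild-type livers had 10.73, 10.44, 10.44, 10.65 and 10.58 and knockout fasted mice 10.12, 10.11 and 10.12. The groups were apart in both states, and the fall was -0.42 ± 0.05 (limma adjusted p = 0.000836). Hadh, the gene of the next-to-last step of each oxidation round, had 9.71, 9.84, 9.80 and 9.84 against 9.50, 9.54, 9.50 and 9.43 in fed wild-type and knockout mice. In fasted mice the wild-type values lay between 9.99 and 10.21, against 9.77, 9.73 and 9.55 in knockout mice. It was apart in both states as well and fell by 0.35 ± 0.05 (adjusted p = 0.00193). Both calls held without any single mouse, without knockout fed mice 1 and 4 and without the 4 mice with muscle or pancreas markers.

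The 32 measured genes that build fatty acids and triglycerides had 3 falls and 1 rise, with a median of -0.02. These are 9.38% and 3.12%, against 0.587% and 0.963% of all genes. Elovl5, which elongates polyunsaturated fatty acids, fell by 0.48 ± 0.08 (limma adjusted p = 0.00627), by 0.76 in fed and 0.21 in fasted mice. Me1, the malic enzyme that supplies NADPH, fell by 0.79 ± 0.16 (adjusted p = 0.0203), and its other probe set gave -0.82. Pklr, the liver pyruvate kinase, fell by 0.72 ± 0.15 (adjusted p = 0.0173), by 0.39 in fed and 1.05 in fasted mice, and was the 1 changed gene of 27 in the glycolysis list. Elovl1, which elongates saturated fatty acids, rose by 0.80 ± 0.15 (adjusted p = 0.00881). The list had 1 rise and 1 fall without knockout fed mice 1 and 4, where Me1 was at -0.62 (adjusted p = 0.109) and Pklr at -0.62 (adjusted p = 0.105), and 1 fall without the 4 mice with muscle or pancreas markers. There Me1 was at -0.63 (adjusted p = 0.0972), Pklr at -0.74 (adjusted p = 0.057) and Elovl1 at 0.71 (adjusted p = 0.0781). Pklr was also not called without knockout fasted mouse 2 (adjusted p = 0.0612).

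Of 29 lipoprotein genes 2 fell (6.9%, against 0.587% of all genes) and none rose. Vldlr, the receptor that takes up triglyceride-rich particles, had 4.26, 4.02, 3.89 and 4.56 in fed wild-type mice and 3.53, 3.30, 3.30 and 3.15 in fed knockout mice. Fasted wild-type values were 3.40, 4.05, 4.99, 4.18 and 4.51 and knockout fasted mice 3.68, 3.44 and 3.18. Fed mice were apart and fasted mice overlapped through wild-type mouse 1 at 3.40. The fall was -0.83 ± 0.17 (limma adjusted p = 0.0212). Apoa4, an apolipoprotein of chylomicrons, fell by 0.67 ± 0.13 (adjusted p = 0.0125) with groups apart in both states, by 0.51 in fed and 0.84 in fasted mice. Vldlr was not called without knockout fasted mouse 2 or 3 (adjusted p up to 0.0818), without knockout fed mice 1 and 4 (-0.84, adjusted p = 0.0716) or without the 4 mice with muscle or pancreas markers (-0.80, adjusted p = 0.146). Apoa4 was at -0.75 without those 4 mice (adjusted p = 0.0593). None of 20 cholesterol synthesis genes and none of 15 gluconeogenesis genes passed in limma, where 1 of each list was higher and 1 and 2 were lower at an unadjusted p under 0.05.

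**Figure D5:**
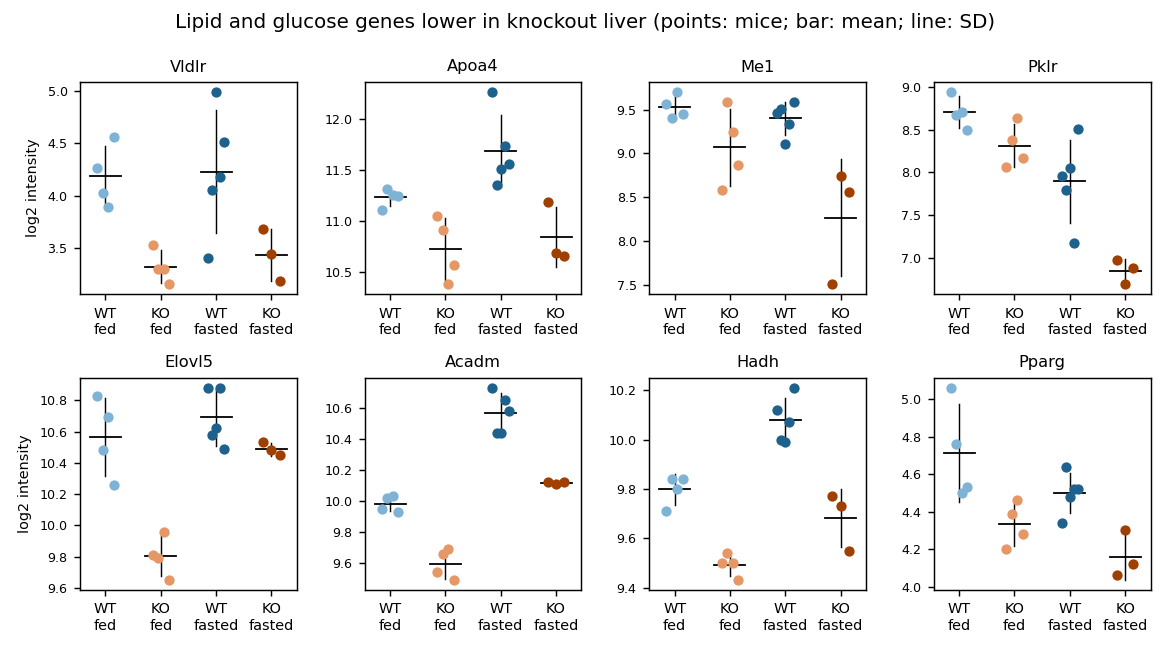
Log2 intensity of 8 genes of lipid and glucose metabolism in each mouse, by group (WT, wild-type; KO, knockout; bars, group mean; lines, SD; vertical axes differ and do not start at 0). Acadm, Hadh, Apoa4 and Pparg are lower in every knockout mouse than in every wild-type mouse of the same feeding state, and Vldlr, Me1, Pklr and Elovl5 overlap in at least 1 state.

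Nuclear receptors and enzymes of other liver functions changed singly. Bckdhb, a subunit of the complex that breaks down branched-chain amino acids, fell by 0.50 ± 0.07 (limma adjusted p = 0.00193), 1 of 33 genes of amino acid catabolism, and Kmo of tryptophan breakdown rose by 0.38 ± 0.08 (adjusted p = 0.0299). Of 57 drug metabolism genes 2 rose and 2 fell (3.51% each, against 0.963% and 0.587% of all genes). Cyp2c70, a bile acid hydroxylase gene, rose by 0.69 ± 0.13 (adjusted p = 0.0125) and Cyp2f2 by 0.39 ± 0.07 (adjusted p = 0.00791). Their values were 1.24 and 0.60 in fasted and 0.15 and 0.17 in fed mice. The difference between states did not pass for either (adjusted p = 0.175 and 0.271). Nr1i3, the xenobiotic receptor CAR, fell by 0.61 ± 0.15 (adjusted p = 0.0442) and the epoxide hydrolase gene Ephx1, also the 1 changed gene of 17 in the NRF2 list, by 0.34 ± 0.08 (adjusted p = 0.0341). Nr1h4, the bile acid receptor FXR, fell by 0.38 ± 0.08 (adjusted p = 0.0284), 1 of 25 bile acid genes. The calls of Kmo, Nr1i3, Ephx1 and Nr1h4 were lost without 11, 13, 10 and 6 of the 16 single mice (adjusted p up to 0.092, 0.154, 0.113 and 0.103), without knockout fed mice 1 and 4 (0.33, -0.37, -0.25 and -0.32) and without the 4 mice with muscle or pancreas markers. Without those 4 mice no gene of the drug metabolism list was called, with Cyp2c70 at 0.55 (adjusted p = 0.167) and Cyp2f2 at 0.36 (adjusted p = 0.121). Cyp2c70 was at 0.69 without knockout fed mice 1 and 4 (adjusted p = 0.0566).

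Single members of further lists passed as well, while 0.963% of all genes rose and 0.587% fell. The cyclin gene Ccnd1 rose by 0.79 ± 0.15 (limma adjusted p = 0.0131), 1 of 31 cell cycle genes. Abcd2, a peroxisomal fatty acid transporter gene, rose by 1.15 ± 0.24 (adjusted p = 0.0195), 1 of 24 female-biased liver genes. Hsd3b5 and Selenbp2 were the 2 of 22 male-biased genes that rose. The male-biased list had a median of -0.16 in fed and 0.35 in fasted mice. Within fed mice alone 1 member was lower, and within fasted mice alone 2 were higher (0.226% and 0.351% of all genes). At an unadjusted p under 0.05 in limma, 3 were higher and 3 lower in the averaged effect. Crp rose by 0.42 ± 0.09 (adjusted p = 0.0259), 1 of 33 acute phase genes, whose median was 0.24 with all mice and 0.07 without knockout fed mice 1 and 4. Of 23 antigen presentation genes, H2-T24 rose by 0.78 ± 0.16 (adjusted p = 0.0212) and H2-Q4 by 0.48 ± 0.10 (adjusted p = 0.0144). Csnk1e, a clock kinase gene, fell by 0.26 ± 0.06 (adjusted p = 0.0421). None of 35 NF-kB and inflammatory genes and none of 27 immediate early genes passed in limma, with 6 and 1 higher and none lower at an unadjusted p under 0.05. Ccnd1, Abcd2, Crp, H2-T24, H2-Q4 and Csnk1e were not called without the 4 mice with muscle or pancreas markers (adjusted p 0.0715 to 0.286). Crp, H2-Q4 and Csnk1e were not called without knockout fed mice 1 and 4 either (adjusted p = 0.132, 0.07 and 0.157). Without knockout fasted mouse 2 or 3, Abcd2 and H2-T24 missed the threshold (adjusted p up to 0.0775 and 0.081). Crp missed it without 6 single mice and Csnk1e without 13 (adjusted p up to 0.0755 and 0.119).

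Because the background is mixed, genes near the targeted locus and genes known to vary between mouse strains were looked at. Of the 300 tested genes nearest Ppard, 150 on each side in GRCm38.p6 gene order, 3 changed (1.0%, against 1.55% of all genes), and of the nearest 100 genes 2 changed (2.0%). The 3 were Btbd9, 35 genes away, which rose by 0.50 ± 0.07 (limma adjusted p = 0.00193), Glo1, the glyoxalase gene next to it, which rose by 0.65 ± 0.09 (adjusted p = 0.000883), and Jpt2, 88 genes away on the other side, which rose by 0.45 ± 0.10 (adjusted p = 0.0278). Glo1 had 9.50, 9.56, 9.68 and 9.56 in fed wild-type mice and 10.14, 9.86, 9.98 and 9.73 in fed knockout mice. In fasted mice it had 8.64, 9.22, 8.94, 8.78 and 9.14 against 10.03, 9.86 and 9.77. The groups were apart in both states, and its other probe set gave 0.64. The neighbours Dnah8 and Glp1r, near Glo1 and named after their values were seen, were at 0.10 and 0.13 and not called. The next changed genes, beyond these 300, were H2-Q4, Tubb5 and H2-T24, 192 to 219 genes away. Jpt2 and Tubb5 were lost without 7 and 13 of the single mice (adjusted p up to 0.105 and 0.112) and without either set of doubted mice. Of 13 genes known to vary between strains, 2 rose, Glo1 and Nnt (15.4%, against 0.963% of all genes). Nnt, the transhydrogenase gene that C57BL/6J mice lack in part, rose by 0.52 ± 0.10 (adjusted p = 0.0126), with 0.90 in fed mice and 0.13 in fasted mice. Wild-type fed mice had 7.52, 6.78, 6.92 and 7.56 and all other mice lay between 7.96 and 8.49. Whether strain differences contribute to the averaged effect was not tested, and chromosomes differed in their share of changed genes, from 0.572% on chromosome 14 to 3.25% on chromosome 8 among the autosomes.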

How the data were processed

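RNA of 16 mouse livers was measured on Affymetrix whole-transcript arrays, 1 per mouse. The deposited table gives linear intensities, for which the submitters' processing notes name RMA as the authors' method. Array medians were 8.08 to 8.61, and the number of arrays limits the precision. The genome build of the probe annotation is not stated in the labels used here. Of 35519 probe sets, 21780 had 1 gene symbol, 1605 several and 12134 none. Symbols were updated through RefSeq GRCm38.p6, with 19853 of 19935 genes matched. For the 998 genes with several probe sets the one with the highest mean was used.

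The deposited intensities were converted to log2 here. A model with 4 group means over all 16 arrays was fitted by lmFit and eBayes of limma 3.58.1 (R 4.3.3), with Benjamini-Hochberg adjustment over all genes and a threshold of 0.05, and ± gives the standard error of a difference. Lists and motifs were handled in Python 3.11.15 with pandas 2.3.3 and numpy 2.4.6. The step was tested on simulated data for the averaged effect over 19935 genes. There 22% of genes changed by 0.25 on the log2 scale, 94% at 0.5 and 98% at 0.75 and at 1 were recovered. Of the called genes 6.02% had not been changed. The simulated noise was normal and independent between genes, with no outlying mice, unlike the arrays here. These shares therefore check the procedure and do not give the recovery or the false calls in these data.

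Named were Ppard, Ppara, Pparg and Rxra, the 12 largest rises and 12 largest falls with groups apart in both states (predicted loci left out), up to 3 changed members of each list in each direction, the 6 changed genes nearest Ppard in gene order and genes whose effect differed between states. Other genes named were chosen after their values were seen. The comparison, its lists and these rules were chosen with earlier results of these data known. Alternatives covered normalization, centring, removal of dim genes (the lowest 40% by mean, under log2 2.79), probe set choice, variance model, array weights, the replicate block, an additive model, each mouse left out and 2 sets of mice left out. Leaving out the 4 mice with muscle or pancreas markers was chosen after seeing the data.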

Additional observations from a re-analysis of the deposited data

Results flagged for a closer look

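Among 306 gene or list values within groups of 4 or 5 mice, 10 held a mouse far from the others of its group. The threshold gives 5% by chance for values that were not chosen. Many of these genes were named for their calls, so their count cannot be judged against that share. The search looks for 1 mouse apart from the rest and can miss 2 outlying mice of a group, such as knockout fed mice 1 and 4. The group of 3 mice was not searched. In knockout fed mice, Gbp3 was 6.39 in mouse 2, against 5.52 to 5.62 in the others, and Nmrk1 was 4.91 in mouse 1, against 4.41 to 4.48. Cyp4a10 was 5.63 in knockout fed mouse 4, against 7.36 to 7.63. In wild-type fasted mice, Ddah1 was 4.81 in mouse 1, against 6.51 to 6.68, Rxra was 8.57 in mouse 3, against 8.19 to 8.30, and C1qb was 5.63 in mouse 4, against 6.34 to 6.52. These values are log2 intensities.

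Of the list scores, cholesterol synthesis was 0.24 in wild-type fed mouse 4, against 0.63 to 0.70, and -0.98 in wild-type fasted mouse 2, against -0.62 to -0.49. Bile acid synthesis and transport was -0.03 in wild-type fasted mouse 1, against 0.10 to 0.13, and the pancreas score was 1.91 in wild-type fasted mouse 5, against -0.25 to 0.23. The knockout effect on Hsd3b5 differed between the feeding states by 2.72 on the log2 scale, higher in fasted mice (limma adjusted p = 0.0284).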

How the results depend on the processing

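The averaged count of 309 genes was 171 without knockout fed mice 1 and 4, 114 without the 4 mice with muscle or pancreas markers and 175 to 359 without any 1 mouse, and lay between 240 and 397 under the other alternatives. The fed count of 135 was 51, 26 and 59 to 274 under the same 3 removals. The fasted count of 107 was 27 without the 4 mice, 21 to 126 without any 1 mouse and 185 with array weights. The count of 2 genes whose effect differed between states was 1 with dim genes left out (Hsd3b5, since Tc2n is dim). It was 1 with an intensity trend and robust variance (Tc2n, without Hsd3b5) and 1 with the replicate block (Hsd3b5, without Tc2n). It was 1 without knockout fed mice 1 and 4, 5 without the 4 mice and 0 to 8 without any 1 mouse. The share of changed genes near Ppard, 1.0%, was 2.0% with 50 genes on each side and 0.667% to 1.33% without any 1 mouse. Of 63 changed genes named by rule, 27 kept their call under every alternative run, 42 without knockout fed mice 1 and 4, 32 without the 4 mice and 52 with the replicate block, and none changed sign. The main fit did not pair mice by replicate number. Over 21 pairs with the same number the deviations correlated between -0.253 and 0.231, with a median of 0.074, and 6 exceeded 0.1. The median was -0.042 over 74 other pairs. Whether the numbers mark pairs or batches cannot be told from these correlations. With the replicate block 315 genes were called, 234 of them among the 309, 168 higher and 147 lower. Of the lists with 4 or more changed genes, the 5 chaperone rises were 8 with array weights and 3 with the replicate block, and the 4 changed drug metabolism genes were 2 with the additive model. The causes were not tested.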
